A study of Mus musculus with 7 samples.

Results

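The 10 genes described here encode the IL-7 receptor, the kinases and STAT5 proteins below it, and 3 feedback genes of the SOCS family. They are Il7r, Il2rg, Crlf2, Jak1, Jak3, Stat5a, Stat5b, Cish, Socs2 and Socs3, chosen by symbol from the 24341 genes of the expression table, and all 10 passed the filter on low values that left 10541 genes for testing. The study sequenced mRNA of B-cell precursors (BCP cells) from Eμ-Ret mice in 2 groups, 4 preleukemic samples from young, healthy mice and 3 leukemic samples from older, moribund mice with overt disease. Every mouse of both groups was hemizygous for Eμ-Ret, an oncogenic Ret fusion gene driven by the immunoglobulin heavy chain enhancer (Eμ), on a BALB/c background. The labels give BCP cells of both groups as sorted by flow cytometry. The gate of B220int, CD43int and BP-1hi is stated in the methods for preleukemic cells, and for leukemic cells taken from spleens for culture the methods say that most were not enriched, so the gate of the leukemic RNA samples is not known. Age moved with disease state, so age and disease cannot be told apart, and no sample came from mice without the transgene.

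IL-7 is the stromal cytokine on which mouse B-cell precursors depend for survival and division. It binds a pair of receptor chains, the IL-7 receptor α chain (Il7r) and the common γ chain (Il2rg), while the related cytokine TSLP pairs the α chain with Crlf2. JAK1 sits on the α chain and JAK3 on the γ chain, and together they phosphorylate STAT5, which enters the nucleus and switches on target genes. Cish and Socs2 are direct STAT5 targets whose proteins dampen cytokine signaling, so their RNA is often read as a trace of recent STAT5 activity, whereas Socs3 is driven mainly by STAT3. RNA levels do not report receptor protein, phosphorylation or signaling, none of which was measured in these libraries. The study asked, among other things, whether BCP cells still depend on this pathway once leukemia has developed, and the comparison of leukemic with preleukemic samples gives the RNA levels of its parts.

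The STAT motif TTCNNNGAA is its own reverse complement and so reads the same on both strands. It was searched in the RefSeq promoter windows of GRCm38.p6. These run from 250 bases before to 50 bases after each listed start, and a gene can have more than 1 start. The motif occurred in 2726 of 32851 windows (8.30%). The 9 members with a window had 11 windows, and 3 of these members held the motif, namely Cish, Il7r and Socs3. The share of 8.30% is per window and not per gene, so the member count cannot be set against it. Socs2 had no window. The sequences around these motifs are shown because they place 2 of the feedback genes and the receptor gene beside the letters that STAT5 prefers. Motifs are in capitals, and a match is a description and not a bound site. The Cish window (chr9:107296579-107296678, plus strand) held 2 adjoining motifs, at 0 and 11 bases from the RefSeq start. The Il7r window (chr15:9529967-9530066, minus strand) held 1, at -142 bases from 9529876, the gene start by the deposited locus. The RefSeq gene starts at 9529941. The Socs3 window (chr11:117969467-117969566, minus strand) held 1, at -154 bases from 117969366, again the start by the deposited locus. The RefSeq gene of Socs3 starts at 117970336, so this window lies inside it.
Cish: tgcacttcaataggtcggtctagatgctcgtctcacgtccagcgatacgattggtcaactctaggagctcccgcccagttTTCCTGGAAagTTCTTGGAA
Il7r: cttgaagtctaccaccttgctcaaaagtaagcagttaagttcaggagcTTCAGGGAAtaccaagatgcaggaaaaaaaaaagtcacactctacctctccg
Socs3: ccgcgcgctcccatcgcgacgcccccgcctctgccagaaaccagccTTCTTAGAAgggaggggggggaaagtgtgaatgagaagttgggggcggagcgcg

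Values are FPKM (fragments scaled to transcript length and library depth), which can be compared between genes. Averaged over all 7 samples, Jak1 stood at 135 FPKM and Il7r at 105 FPKM, above 94.8% and 92.7% of the genes tested. Il2rg (67.4 FPKM), Socs2 (45.1), Crlf2 (41.7), Jak3 (23.6), Stat5b (22.3) and Stat5a (15.3) followed, and Cish (6.13) and Socs3 (2.77) were the lowest members. Neighbors in this order kept it in all 7 samples for Il7r over Il2rg, Crlf2 over Jak3, Stat5b over Stat5a, and Stat5a over Cish. Jak1 exceeded Il7r in 6 of 7 samples, Il2rg exceeded Socs2 in 6, Jak3 exceeded Stat5b in 6 and Cish exceeded Socs3 in 5, while Socs2 exceeded Crlf2 in 3 of 7, so that Socs2 and Crlf2 could not be ordered.

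**Figure D1:**
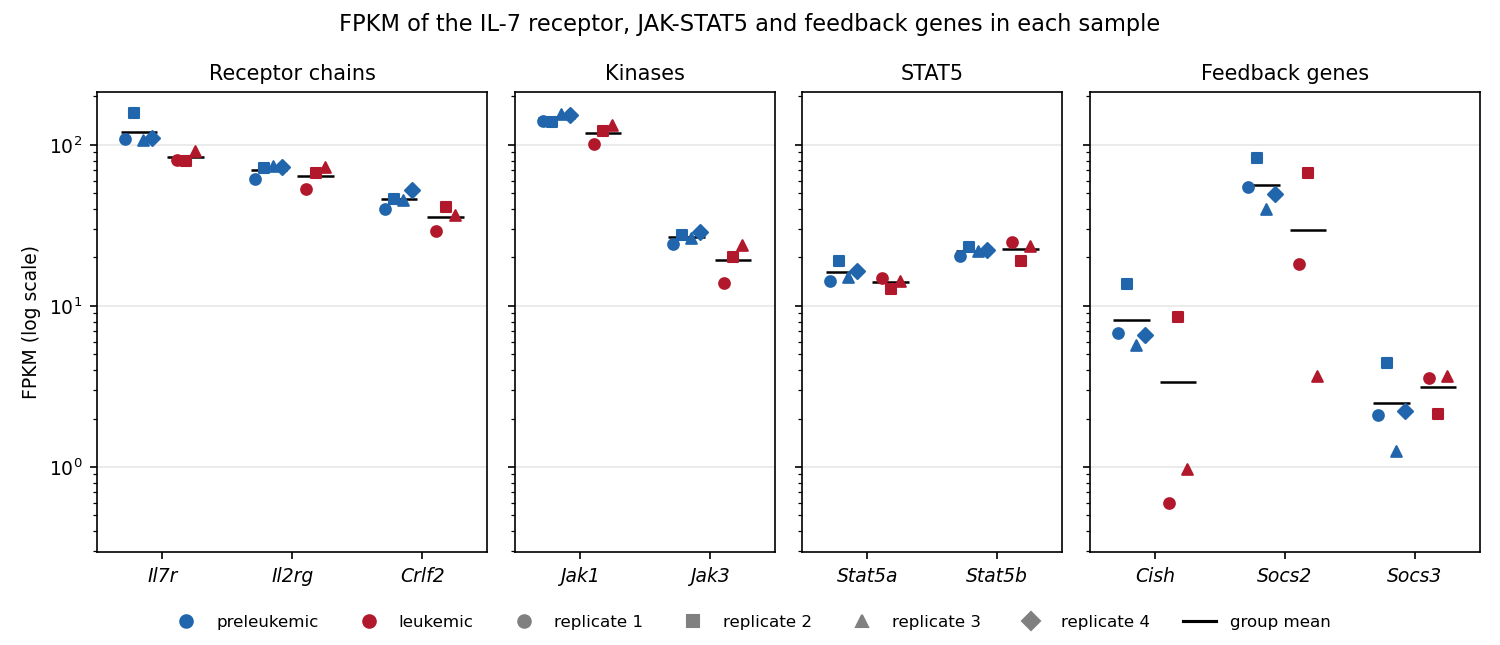
FPKM (y axis, log scale) of each member gene (x axis) in the 4 preleukemic (blue) and 3 leukemic (red) samples; symbols mark replicate numbers and black lines group means. Il7r, Jak1 and Jak3 were lower in every leukemic sample than in any preleukemic one, and Cish and Socs2 were spread over more than 10-fold within the leukemic group.

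Il7r, Jak1 and Jak3 were lower in each leukemic sample than in each preleukemic sample, but no member passed the test. Of the 10 members, 0 had an adjusted p under 0.05 (limma on log2(FPKM + 1), adjusted over all genes tested), against 14.7% of all genes tested (6.26% lower and 8.47% higher). At an unadjusted p under 0.05, 5 of 10 members were lower (Il7r, Crlf2, Jak1, Jak3 and Cish), against 17.5% of all genes in that direction and 34.0% in either. The groups did not overlap, with leukemic samples lower, for 3 of 10 members, against 17.1% of all genes tested in that direction and 32.0% in either. The fold change was below 0 on the log2 scale for 8 of 10 members, against 52.1% of all genes, and its median was -0.34 over the members and -0.02 over all genes. Fold changes are leukemic over preleukemic on the log2(FPKM + 1) scale, which understates the change of low genes. The samples are bulk RNA, in which fewer cells of a type and less RNA per cell cannot be told apart.

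**Figure D2:**
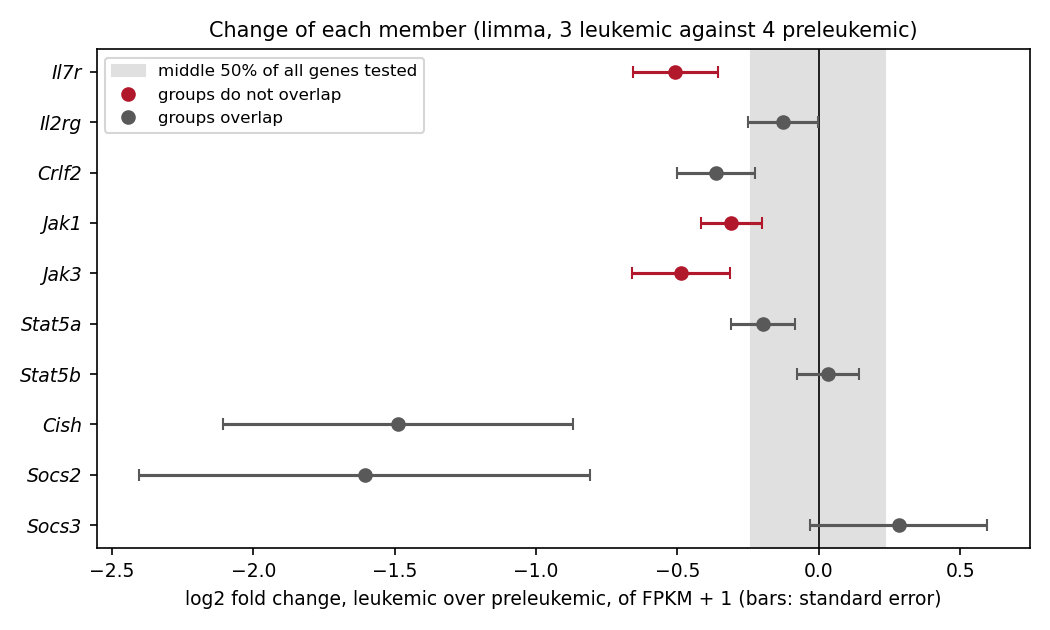
Log2 fold change of FPKM + 1, leukemic over preleukemic (x axis; bars are standard errors), for each member (y axis); red points are genes whose groups did not overlap, and the grey band holds the middle 50% of all genes tested, from -0.24 to 0.23. Cish (-1.49) and Socs2 (-1.61) had the largest changes and the widest errors, and Stat5b (0.03) and Socs3 (0.28) were the members above 0.

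Il7r (chr15:9506159-9529876 in the deposited table), which encodes the IL-7-binding chain, was measured at 80.4, 79.3 and 92.2 FPKM in leukemic replicates 1 to 3 and at 109, 158, 107 and 111 FPKM in preleukemic replicates 1 to 4. The groups did not overlap, and preleukemic replicate 2 stood apart from the other 3 preleukemic samples. The means were 83.9 ± 7.16 (SD, n = 3) and 121 ± 24.7 (SD, n = 4) FPKM, a log2 fold change of -0.51 (SE 0.15). The adjusted p of limma was 0.0628, and it stayed between 0.0522 and 0.191 under 15 alternatives, so that the difference did not pass the threshold in any of them. Without preleukemic replicate 2 the change was -0.37 with an adjusted p of 0.0616 (limma).

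On chromosome 15, where Il7r lies, the median gene of leukemic replicate 3 was 0.20 above the preleukemic mean (log2), while the other leukemic samples were at -0.02 and -0.01. Leukemic replicate 3 was also the leukemic sample with the highest Il7r. With each chromosome centred on its own median the Il7r change was -0.53 (adjusted p = 0.0522, limma).

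Il2rg (chrX:101264385-101268255), the γ chain shared by several cytokine receptors, was measured at 53.0, 66.7 and 72.9 FPKM in the leukemic samples and at 61.5, 71.5, 73.7 and 72.5 FPKM in the preleukemic samples. The groups overlapped, and leukemic replicate 1 was the lowest sample. The means of 64.2 ± 10.2 (SD, n = 3) and 69.8 ± 5.62 (SD, n = 4) gave a log2 fold change of -0.13 (SE 0.12, adjusted p = 0.493, limma). Without leukemic replicate 1 the change was 0.0029.

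Crlf2 (chr5:109554709-109558993), the TSLP-binding chain, was measured at 29.3, 41.3 and 36.8 FPKM in the leukemic samples and at 40.0, 46.3, 45.4 and 52.5 FPKM in the preleukemic samples. Only leukemic replicate 2 reached into the preleukemic range. The means were 35.8 ± 6.04 (SD, n = 3) and 46.1 ± 5.13 (SD, n = 4), with a log2 fold change of -0.36 (SE 0.14, adjusted p = 0.114, limma).

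The α and γ chains were also compared within each sample, where scaling between samples has no part. The ratio of Il2rg to Il7r was 0.660, 0.842 and 0.791 in the leukemic samples and 0.564, 0.452, 0.690 and 0.656 in the preleukemic samples. Leukemic replicates 2 and 3 lay above all preleukemic samples, and leukemic replicate 1 lay below preleukemic replicate 3. The mean log2 ratio was 0.38 higher in the leukemic samples, and the two-sided exact permutation test over the 35 labelings gave p = 0.114. The same test of the STAT5 pair, described with those genes, gave an exact p of 0.0571, so that over both ratios the Benjamini-Hochberg adjusted p was 0.114 for each.

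The ligands of these receptors were at or below 1.50 FPKM in every sample and were not tested, the floor of the table being 0.01 FPKM. Il7 was measured at 0.0287, 1.50 and 0.01 FPKM in the leukemic samples and between 0.349 and 0.484 FPKM in the preleukemic samples, with leukemic replicate 2 the highest. Tslp did not exceed 0.481 FPKM in any sample, and that value was again in leukemic replicate 2. Among other chains that pair with the γ chain, Il2ra lay between 0.278 and 0.747 FPKM in the leukemic samples and between 1.17 and 2.74 FPKM in the preleukemic samples, without overlap and below the filter. Il2rb, the IL-2 receptor β chain that NK cells carry, was measured at 1.83, 6.92 and 2.92 FPKM in the leukemic samples and between 0.492 and 1.87 FPKM in the preleukemic samples (adjusted p = 0.0847, limma; without leukemic replicate 1, 0.0466). At its preleukemic mean Il2rb would not have reached the filter sum of 10 FPKM, so it was tested only through higher leukemic values.

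Jak1 (chr4:101069038-101265282), the kinase on the α chain, was measured at 101, 122 and 133 FPKM in the leukemic samples and at 141, 138, 156 and 153 FPKM in the preleukemic samples. The groups did not overlap, and leukemic replicate 1 was the lowest. The means were 119 ± 16.1 (SD, n = 3) and 147 ± 8.68 (SD, n = 4), with a log2 fold change of -0.31 (SE 0.11, adjusted p = 0.0912, limma). The locus listed in the table is wider than the RefSeq gene, which starts at 101151974, so that fragments from beyond the 3′ end of Jak1, which lies on the minus strand, could be included.

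Jak3 (chr8:71676383-71690577), the kinase on the γ chain and largely restricted to blood cells, was measured at 13.8, 20.0 and 24.0 FPKM in the leukemic samples and at 24.2, 27.7, 26.6 and 28.7 FPKM in the preleukemic samples. The groups did not overlap, though leukemic replicate 3 lay just under preleukemic replicate 1. The means were 19.3 ± 5.15 (SD, n = 3) and 26.8 ± 1.94 (SD, n = 4), with a log2 fold change of -0.49 (SE 0.17, adjusted p = 0.0978, limma). Without leukemic replicate 3 the change was -0.65 and passed the threshold (adjusted p = 0.0450, limma). Leukemic replicate 1 was the lowest sample for Il2rg, Crlf2, Jak1 and Jak3.

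Jak2, which works with the TSLP receptor, lay between 20.1 and 23.8 FPKM in the leukemic samples and between 19.8 and 24.2 FPKM in the preleukemic samples. Its log2 fold change of -0.02 (SE 0.10) changed sign with size factors, with chromosome centring and with the replicate block. Among the 7 other JAK and STAT genes, 0 had an adjusted p under 0.05 (limma), against 14.7% of all genes tested. An unadjusted p under 0.05 was found for 3 of them, against 34.0% of all genes tested. Their median log2 fold change was -0.30. Stat4 (mean 55.0 FPKM, log2 fold change -0.60, adjusted p = 0.128) and Stat6 (mean 37.0 FPKM, -0.30, 0.132) were among the most abundant genes of this list. Stat4 had an adjusted p of 0.0448 without leukemic replicate 3 (limma).

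Stat5a and Stat5b, the near-identical transcription factors that carry the signal to the nucleus, lie side by side on chromosome 11. Stat5a (chr11:100859351-100885169) was measured at 15.0, 12.7 and 14.3 FPKM in the leukemic samples and at 14.2, 19.0, 15.2 and 16.6 FPKM in the preleukemic samples. The groups overlapped through preleukemic replicate 1, and the log2 fold change was -0.20 (SE 0.11, adjusted p = 0.259, limma). Stat5b (chr11:100780731-100850585) was measured at 25.1, 19.1 and 23.7 FPKM in the leukemic samples and at 20.3, 23.4, 22.1 and 22.2 FPKM in the preleukemic samples. Its leukemic samples lay on both sides of the preleukemic range, with a log2 fold change of 0.03 (SE 0.11, adjusted p = 0.858, limma). The sign of the Stat5b change turned when leukemic replicate 1 (-0.045), leukemic replicate 3 (-0.0052) or preleukemic replicate 1 (-0.0050) was left out. The group means were 14.0 ± 1.16 (SD, n = 3) against 16.3 ± 2.06 (SD, n = 4) FPKM for Stat5a and 22.6 ± 3.14 against 22.0 ± 1.27 FPKM for Stat5b.

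The ratio of Stat5b to Stat5a was 1.67, 1.50 and 1.66 in the leukemic samples and 1.43, 1.23, 1.45 and 1.34 in the preleukemic samples. The groups did not overlap. The mean log2 ratio was 0.23 higher in the leukemic samples, and the two-sided exact permutation test gave p = 0.0571, the smallest value that 3 against 4 samples allow. Because the coding sequences of the pair are so alike, the assignment of shared fragments by the authors' counting could move part of the signal from one gene to the other.

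Cish and Socs2, the STAT5-induced feedback genes, were lower in leukemic replicates 1 and 3 than in every preleukemic sample, while in leukemic replicate 2 they stood at the height of the upper preleukemic samples. Cish (chr9:107296689-107301961) was measured at 0.598, 8.55 and 0.977 FPKM in the leukemic samples and at 6.78, 13.7, 5.72 and 6.59 FPKM in the preleukemic samples. Leukemic replicate 2 therefore lay above 3 of the 4 preleukemic samples. The means were 3.37 ± 4.48 (SD, n = 3) and 8.20 ± 3.70 (SD, n = 4), with a log2 fold change of -1.49 (SE 0.62) that did not pass the threshold (adjusted p = 0.139, limma). Without leukemic replicate 2 the change was -2.30 (SE 0.33, adjusted p = 0.0126), in a comparison in which 15.4% of all genes passed.

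The low Cish values rested on few fragments. At the depth read from the table, leukemic replicates 1 and 3 would hold 41 and 72 Cish fragments if all came from its longest transcript, with counting errors of 15.6% and 11.8%, against 599 in leukemic replicate 2 and 361 to 902 in the preleukemic samples. Chromosome 9, where Cish lies, had a median gene 0.33, 0.28 and 0.10 above the preleukemic mean (log2) in leukemic replicates 1 to 3. With each chromosome centred, the Cish change was -1.70 (adjusted p = 0.116, limma).

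Socs2 (chr10:95411490-95416857) was measured at 18.3, 66.7 and 3.67 FPKM in the leukemic samples and at 54.7, 82.9, 39.8 and 49.4 FPKM in the preleukemic samples. Leukemic replicate 2 lay above 3 of the 4 preleukemic samples, and the other leukemic samples lay below all of them. The means were 29.6 ± 33.0 (SD, n = 3) and 56.7 ± 18.5 (SD, n = 4), with a log2 fold change of -1.61 (SE 0.80, adjusted p = 0.197, limma). The change was -2.55 (SE 0.56, adjusted p = 0.0327) without leukemic replicate 2 and -0.62 without leukemic replicate 3. From highest to lowest, both genes ran preleukemic replicate 2, leukemic replicate 2 and preleukemic replicates 1, 4 and 3, followed by the remaining leukemic samples in opposite order.

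Socs3 (chr11:117966087-117969366), the SOCS member driven mainly by STAT3, was measured at 3.57, 2.12 and 3.68 FPKM in the leukemic samples and at 2.10, 4.45, 1.26 and 2.24 FPKM in the preleukemic samples. It was low in leukemic replicate 2 and higher in the other leukemic samples, the reverse of Cish and Socs2 within that group. The means were 3.12 ± 0.869 (SD, n = 3) and 2.51 ± 1.37 (SD, n = 4), with a log2 fold change of 0.28 (SE 0.31, adjusted p = 0.546, limma). Socs1, a direct inhibitor of JAK kinases, ranged from 1.53 to 2.24 FPKM in the leukemic samples and from 1.66 to 3.52 FPKM in the preleukemic samples. Preleukemic replicate 2 was the highest of all 7 samples for Il7r, Stat5a, Cish, Socs2 and Socs3.

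**Figure D3:**
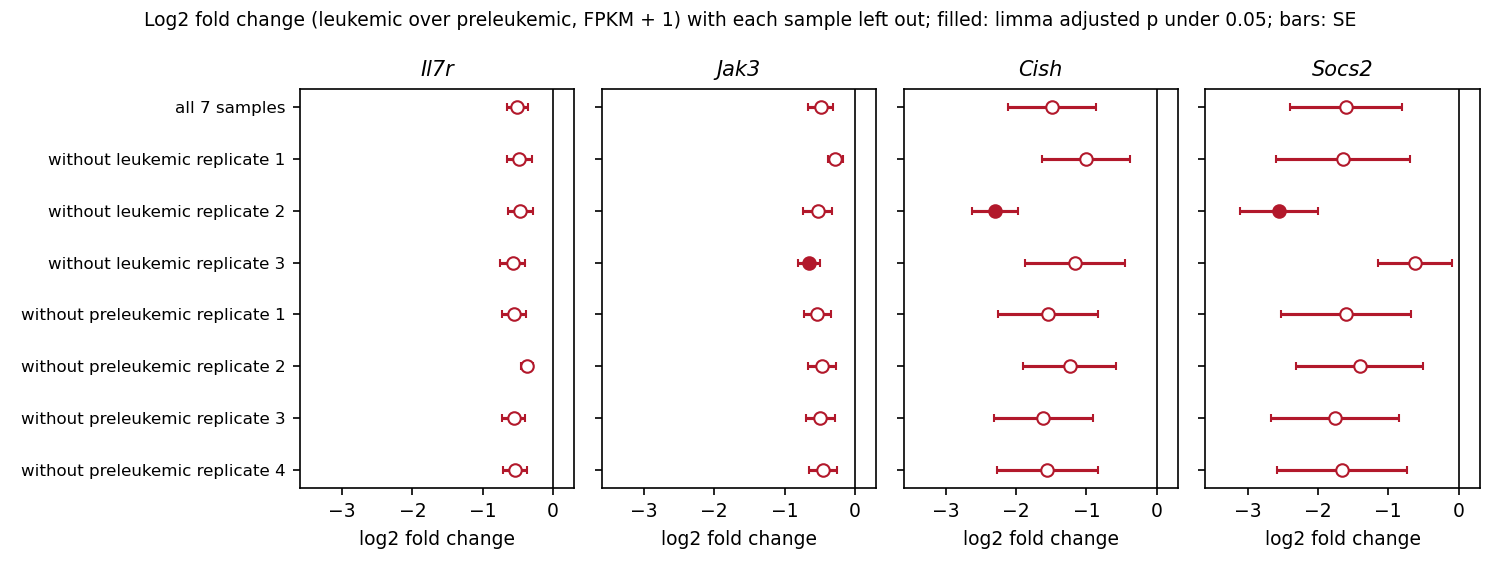
Log2 fold change of FPKM + 1, leukemic over preleukemic (x axis; bars are SE), for Il7r, Jak3, Cish and Socs2 with all 7 samples and with each sample left out in turn (y axis); filled points had a limma adjusted p under 0.05. Il7r passed in none of the 8 fits shown, whereas Cish (-2.30) and Socs2 (-2.55) passed without leukemic replicate 2 and Jak3 (-0.65) passed without leukemic replicate 3.

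Leukemic replicate 2 also had the highest red cell and macrophage marker sums. Among the leukemic samples it had the highest B-cell precursor marker sum as well, at 5593 FPKM against 3403 and 4308 FPKM. Its summed FPKM of 12 red cell precursor markers was 23808, against 5204 and 11647 in the other leukemic samples and 353 to 2479 in the preleukemic samples. Its sum of 10 macrophage markers was 239 FPKM, against 45.0 and 98.8 in the other leukemic samples and 11.4 to 19.6 in the preleukemic samples. Its sum of 13 T and NK cell markers, 107 FPKM, was close to the 108 FPKM of leukemic replicate 3. Within that list the NK cell genes Gzma (32.1 FPKM) and Ncr1 (5.96 FPKM), picked after their values were seen, were at most 6.88 and 0.977 FPKM in any other sample, while the NK cell gene Klrb1c (2.42 FPKM) was lower than in leukemic replicate 3 (3.29 FPKM) and the preleukemic samples (4.39 to 7.02 FPKM). The part of any of these cell types, B-cell precursors among them, in the Cish and Socs2 values of this sample was not tested.

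Most B-cell precursor markers were lower in the leukemic samples alongside Il7r, but 2 of 15 passed (13.3%, against 14.7% of all genes tested, limma). Of the 15, 10 were lower without overlap, against 17.1% of all genes tested. Cd79b, Dntt, Spn, Ptprc and Cd24a overlapped between the groups. The sum of the 15 markers, Il7r among them, was 3403, 5593 and 4308 FPKM in leukemic replicates 1 to 3. It was 6752 to 8425 FPKM in the preleukemic samples, and 14 of the 15 had a log2 fold change below 0. Over the 14 markers other than Il7r the median log2 fold change was -0.95, against -0.51 for Il7r. Enpep, which encodes the BP-1 antigen of the preleukemic gate, was measured at 19.1, 102 and 77.2 FPKM in the leukemic samples and at 134 to 210 FPKM in the preleukemic samples. Cd79a was the highest marker at 869 to 1194 FPKM in the leukemic samples and 1259 to 1626 FPKM in the preleukemic samples, followed by Igll1 and Vpreb1, so that defining markers of BCP cells were present in all 7 samples. The part of the cell mixture in the lower Il7r, Crlf2, Jak1 and Jak3 values was not tested. Nor was it tested for the other pathway genes that were lower, such as Foxo1, Pik3cd, Ebf1, Pax5 and Tcf3, given below.

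Other marker sums, again as ranges, were 1411 to 1752 FPKM in leukemic and 149 to 864 FPKM in preleukemic samples for 10 neutrophil genes, led by S100a8, S100a9 and Ngp, and 31.6 to 108 against 42.0 to 72.4 FPKM for 13 T and NK cell genes, led by Cd2, Lck and Thy1. They were 12.8 to 51.2 against 0.338 to 2.90 FPKM for 5 platelet genes, 156 to 265 against 118 to 166 FPKM for 7 mature B and plasma cell genes and 3.56 to 8.00 against 0.298 to 1.43 FPKM for 6 dendritic cell genes. Passing genes numbered 12 of 12 higher for red cell precursors, led by Hbb-b1, Hba-a1 and Car2, and 6 of 10 higher for macrophages, 3 of 9 higher for neutrophils and 4 of 4 higher for platelets. They were 1 of 10 lower for T and NK cells (Thy1), 1 of 6 higher for mature B and plasma cells (Jchain) and 2 of 15 lower for B-cell precursors, and no dendritic cell marker was high enough to be tested. Over all genes tested 14.7% passed. At their preleukemic means the tested platelet genes and macrophage genes such as Adgre1, Cd5l and Spic would not have reached the filter sum of 10 FPKM. They were tested only through higher leukemic values, so these counts of higher genes are in part set by the filter. No marker was at the floor in all samples.

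Of the 15 other STAT5 target genes, 13 were tested, 1 fell and 1 rose (15.4% called by limma, against 14.7% of all genes tested), and the median log2 fold change was -0.14. Ccnd3, the D-type cyclin most used by B-cell precursors, fell from 377 ± 33.7 (SD, n = 4) to 228 ± 19.1 (SD, n = 3) FPKM (log2 fold change -0.72, SE 0.10; adjusted p = 0.0109), and it passed with each single sample left out. Chromosome 17, where Ccnd3 lies, had a median gene 0.37, 0.37 and 0.40 above the preleukemic mean (log2) in leukemic replicates 1 to 3. Over the alternatives the Ccnd3 change was -1.08 to -0.65. The study also lists Ccnd3 among Pax5 target genes that were lower in leukemic cells. Ccnd1, another D-type cyclin, was measured at 117, 29.9 and 102 FPKM in the leukemic samples and at 15.9, 22.2, 20.0 and 4.59 FPKM in the preleukemic samples. It rose by 2.30 (SE 0.63, adjusted p = 0.0496, limma), but was no longer called without leukemic replicate 1 (1.95), leukemic replicate 3 (2.05), or preleukemic replicates 1 (2.37), 2 (2.52), 3 (2.48) or 4 (1.84).

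Some of these targets, but not all, were ordered across samples much like Cish and Socs2. Ccnd2, the cyclin D gene best known as induced by cytokines, was measured at 2.24, 27.1 and 5.00 FPKM in the leukemic samples and at 18.0, 22.1, 7.94 and 14.2 FPKM in the preleukemic samples. Leukemic replicate 2 was the highest sample, and the other leukemic samples were the lowest, as they were for Cish. The log2 fold change of Ccnd2 was -0.93 (SE 0.70, adjusted p = 0.373, limma). It was -1.82 without leukemic replicate 2 (adjusted p = 0.0353, limma), in a comparison in which 15.4% of all genes passed. Ccnd2 was chosen with its high value in that sample known, so this p-value does not test the likeness. It passed with no other single sample left out. Pim1, a survival kinase, was measured at 30.3, 94.4 and 43.0 FPKM in the leukemic samples and between 42.6 and 85.5 FPKM in the preleukemic samples, with the top value again in leukemic replicate 2 and the next in preleukemic replicate 2. Unlike for Cish, leukemic replicate 3 lay inside the preleukemic range. Bcl6, a gene that STAT5 represses in B-cell precursors, ran the other way, at 17.8, 3.37 and 9.61 FPKM in the leukemic samples and 4.82, 3.20, 7.95 and 7.42 FPKM in the preleukemic samples. Its lowest values were thus in preleukemic replicate 2 and leukemic replicate 2. Other genes of the list did not share this order. Leukemic replicate 2 was the lowest of all samples for Osm (3.28 FPKM, others 5.30 to 11.9) and Bcl2 (5.90 FPKM, others 7.72 to 11.4). All genes of this paragraph were chosen after their values were seen, and the likeness is a description over 7 samples.

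**Figure D4:**
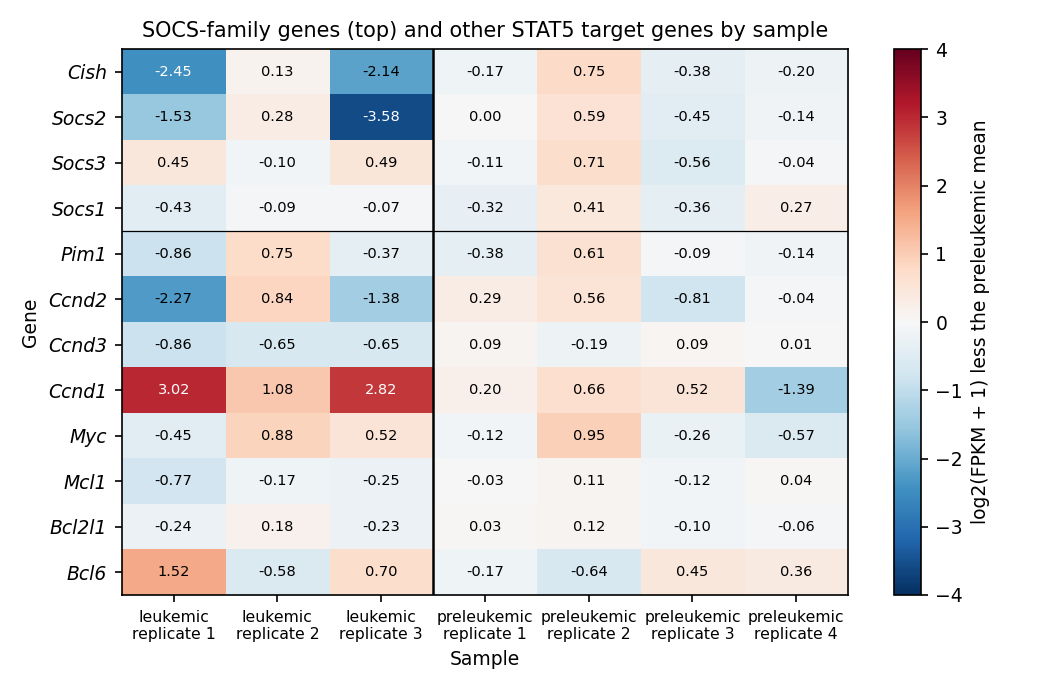
Deviation of log2(FPKM + 1) from the preleukemic mean (color and printed value) for SOCS-family genes and other STAT5 target genes (y axis) in each sample (x axis). Leukemic replicates 1 and 3 were at -2.45 and -2.14 for Cish and at -1.53 and -3.58 for Socs2, while leukemic replicate 2 was at 0.13 and 0.28.

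Mcl1, needed by B-cell precursors to survive, was lower in all leukemic samples (78.1 to 118 FPKM) than in the preleukemic samples (123 to 144 FPKM; log2 fold change -0.40, adjusted p = 0.112, limma). Bcl2l1, which encodes BCL-XL, overlapped at 34.1 to 46.1 against 37.8 to 44.1 FPKM. Myc was measured at 54.8, 139 and 108 FPKM in the leukemic samples and at 68.7, 146, 62.5 and 50.3 FPKM in the preleukemic samples (0.32, adjusted p = 0.620, limma). Cdkn1a, a cell cycle inhibitor, lay at 3.27 to 5.12 FPKM in the leukemic samples and 7.41 to 28.1 FPKM in the preleukemic samples without overlap (-1.43, adjusted p = 0.0510, limma). It passed without preleukemic replicate 2 (0.0480), with a pseudocount of 0.1 (0.0454), with quantile normalization (0.0451) and with chromosome centring (0.0353).

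The remaining pathway lists were counted in the same fit. Over all 105 other pathway genes, 90 were tested and 19 passed (21.1%, against 14.7% of all genes tested), 12 lower and 7 higher, with a median log2 fold change of -0.19. Il6ra, Kit and Gfi1b, among the higher genes, were tested only through their higher leukemic values. The count of 19 fell to 9 without preleukemic replicate 2, to 2 without preleukemic replicate 3 and to 2 without preleukemic replicate 4, while over all genes 443, 271 and 149 of 10541 then passed. Under filter, pseudocount, scaling or trend alternatives that ended a call, the adjusted p (limma) was 0.0549 to 0.0737 for Ifngr2, 0.0574 to 0.0658 for Pias3, 0.0541 to 0.0752 for Pias4, 0.0542 to 0.0547 for Tcf3 and 0.0528 to 0.0764 for Ccnd1.

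Of 18 other SOCS genes and JAK-STAT inhibitors, 3 fell and 0 rose (16.7% called by limma, against 14.7% of all genes tested). An unadjusted p under 0.05 was found for 5 of them, against 34.0% of all genes tested. Their median was -0.19. The 3 were Cblb, a ubiquitin ligase (9.89 to 6.33 FPKM, -0.58, adjusted p = 0.0226), and the STAT inhibitors Pias4 (24.6 to 17.8 FPKM, -0.45, 0.0463) and Pias3 (11.4 to 8.22 FPKM, -0.43, 0.0389). Each lost the call without preleukemic replicate 3 (adjusted p = 0.0715, 0.118 and 0.111) and without preleukemic replicate 4 (0.0782, 0.131 and 0.119). Cblb and Pias4 also lost it without preleukemic replicate 2 (0.0522 and 0.0952), Pias3 and Pias4 without preleukemic replicate 1 (0.0865 and 0.0860), and Pias3 without any 1 of the leukemic replicates (0.0548 to 0.0745, limma). The most abundant inhibitors were the phosphatase genes Ptpn6 (142 FPKM over all samples) and Ptprc (71.8) and the adaptor gene Sh2b3 (55.5), at -0.14, -0.26 and -0.34, and none passed. Sh2b3 passed without leukemic replicate 3 (-0.54, adjusted p = 0.0269, limma).

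Through the PI3K-AKT-FOXO arm, IL-7 signaling restrains FOXO1, a factor that itself activates Il7r. Of 20 genes of this arm tested, 3 fell and 1 rose (20.0% called by limma, against 14.7% of all genes tested). Their median was -0.27. Foxo1 was measured at 57.2, 104 and 98.6 FPKM in the leukemic samples and at 144, 156, 179 and 176 FPKM in the preleukemic samples. It fell without overlap (-0.95, SE 0.21; adjusted p = 0.0277), and its adjusted p was 0.0696, 0.0814 and 0.0889 without preleukemic replicates 2, 3 and 4 (limma). Rptor, a subunit of mTORC1 (-0.68, adjusted p = 0.0257), and Pik3ca, a PI3K catalytic subunit (-0.42, 0.0179), were the other genes that fell, and Foxo4 rose (0.40, 0.0336). Rptor, Pik3ca and Foxo4 were not called without preleukemic replicate 3 (0.0752, 0.0553 and 0.0933) or 4 (0.0844, 0.0700 and 0.106), Rptor and Foxo4 not without preleukemic replicate 2 (0.0706 and 0.0836), and Foxo4 not without leukemic replicate 1 (0.0521) or preleukemic replicate 1 (0.0595, limma). Pik3cd, the lymphocyte PI3K subunit, was lower in every leukemic sample (43.2 to 116 FPKM) than in the preleukemic samples (130 to 187 FPKM) at -1.06 (adjusted p = 0.0577, limma). The lipid phosphatase gene Inpp5d was likewise lower, at -0.32 (0.0754). Pik3cd passed without leukemic replicate 2 (0.0166), and with quantile normalization both Pik3cd (0.0440) and Inpp5d (0.0438) passed.

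Of 14 transcriptional regulators of Il7r, 4 fell and 1 rose (35.7% called by limma, against 14.7% of all genes tested). Their median was -0.41. Over all genes tested 6.26% fell and 8.47% rose, and the median was -0.02. Ebf1 (-0.70, adjusted p = 0.00952), Pax5 (-0.78, 0.0134), Tcf3 (-0.67, 0.0369) and Runx1 (-0.61, 0.0167) fell, and Gfi1b, a repressor best known in red cell precursors and platelets, rose from 1.41 ± 1.75 (SD, n = 4) to 13.1 ± 5.37 (SD, n = 3) FPKM (2.70, 0.0175). Ebf1 passed with each single sample left out. Pax5, Runx1, Tcf3 and Gfi1b were not called without preleukemic replicate 3 (adjusted p = 0.0507, 0.0549, 0.0923 and 0.0567) or 4 (0.0551, 0.0627, 0.111 and 0.0650), Tcf3 and Gfi1b not without preleukemic replicate 2 (0.0836 and 0.0528), and Tcf3 not without preleukemic replicate 1 (0.0670, limma). At its preleukemic mean Gfi1b would not have reached the filter sum of 10 FPKM, so it was tested only through higher leukemic values. Gfi1b moved with the red cell and platelet markers given above, whose part in its rise was not tested.

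Of 29 other cytokine receptors and ligands, 18 were tested, 1 fell and 4 rose (27.8% called by limma, against 14.7% of all genes tested). The interferon γ receptor gene Ifngr2 fell (-0.51, adjusted p = 0.0465), while Epor, the erythropoietin receptor (3.26, 0.0185), Il6ra (1.82, 0.0167), Kit, the stem cell factor receptor (1.52, 0.0260), and the interferon receptor gene Ifnar2 (0.68, 0.0222) rose. All of these lost the call without preleukemic replicate 3 (Ifngr2 0.111, Epor 0.0582, Il6ra 0.0553, Kit 0.0735 and Ifnar2 0.0701) and without preleukemic replicate 4 (0.127, 0.0669, 0.0623, 0.0812 and 0.0515), and all but Il6ra without preleukemic replicate 2 (Ifngr2 0.108, Epor 0.0564, Kit 0.0672 and Ifnar2 0.0592). Ifngr2 was also not called without leukemic replicate 1 (0.0827), leukemic replicate 2 (0.0835) or preleukemic replicate 1 (0.0615, limma). At their preleukemic means Il6ra and Kit would not have reached the filter sum of 10 FPKM. They were tested only through higher leukemic values, so the count of higher genes is in part set by the filter. Epor is also one of the red cell precursor markers given above, whose part in its rise was not tested. Ifngr1 (50.0 FPKM over all samples) and Il10ra (33.4) were at 0.10 and -0.12 and did not pass. Ifngr1 passed without leukemic replicate 2 (0.34, adjusted p = 0.0396, limma). Il3ra, the IL-3 receptor α chain, was lower in the leukemic samples (3.37 to 12.4 FPKM) than in the preleukemic samples (13.4 to 18.9 FPKM) at -1.02 (adjusted p = 0.0984, limma).

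Among 7068 other genes with a mean of at least 10 FPKM, those most like Il7r over the 7 samples were Fam208b, Map4k2, Klhl17, Abl2 and Zfp281. Likeness was the mean absolute difference of log2(FPKM + 1) values centred on each gene's mean, and it was 0.03 for Fam208b and 0.07 to 0.08 for the others. Fam208b was measured at 10.2, 10.5 and 12.6 FPKM in the leukemic samples and at 14.4, 21.2, 13.9 and 14.4 FPKM in the preleukemic samples, so that it shared with Il7r a top value in preleukemic replicate 2. By the same measure Gbp7, an interferon-induced GTPase gene, was the closest to Cish and the next closest to Socs2, at 14.7, 79.0 and 10.5 FPKM in the leukemic samples and 44.3 to 77.6 FPKM in the preleukemic samples. Its differences of 0.27 from Cish and 0.37 from Socs2 were larger than those around Il7r, so the match was looser. The search for genes like Cish and Socs2 was added after their values were seen.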

How the data were processed

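Per the labels, BCP cells of Eμ-Ret mice were sorted by flow cytometry, and stranded mRNA libraries were made from total RNA of 4 preleukemic and 3 leukemic samples, grouped and numbered by their labels. The authors deposited 1 table of FPKM values for 24341 genes, with a floor of 0.01 and loci on mm10. The processing notes of the authors name STAR 2.5.0b, bedtools 2.17.0, Cufflinks 2.2.1, Bowtie and DESeq2; their roles and the annotation are not given in the sources used here. For their own comparison the authors gave counts to DESeq2, dropped genes summing to under 10 and used a false discovery rate of 0.05. FPKM are not counts, so no count model was used. The threshold was kept, but the filter here is on an FPKM sum of 10, a different quantity from a sum of 10 counts.

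The 10541 genes whose FPKM summed to 10 or more were compared between groups by limma 3.58.1 (R 4.3.3, eBayes with trend, no covariates) after adding 1 and taking log2, and p-values were adjusted by the method of Benjamini and Hochberg over all of them; a call is an adjusted p under 0.05. Ratios of 2 genes were tested by exact permutation with scipy 1.17.1 in Python 3.11.15. Nothing in the labels says that the samples are separate mice beyond their numbering, so p-values measure the spread between these samples. At most 1 value above the floor was equal in any pair of libraries.

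Depth was read from low values of 2243 genes with 1 transcript, which step in multiples of 1 fragment. It was 13450000 to 16300000 fragments per sample, and 76.5% to 81.7% of low values came out whole within 0.1 fragment, against 20.0% by even spacing. The depth and a length correction were chosen to make these same values whole. The 20.0% is therefore not the share to expect after that choice, and the match does not test the depth. Counting errors cover counting alone and assume the longest GENCODE transcript. Table starts were shifted by 1 base, since starts plus 1 equalled the RefSeq start for 11866 genes and unshifted starts for 680; 23138 symbols (95.1%) were found in RefSeq. Promoter windows are from RefSeq on GRCm38.p6.

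The members, gene lists, tests and alternatives were chosen with earlier results of these data known. Named are the members, in each pathway list the 3 most abundant genes and the 3 called genes that changed most, the 5 genes most like Il7r, and the 3 highest markers of a list or those at the floor; other genes named were chosen after their values were seen. A gene that this rule names is not reported here. Alternatives were a pseudocount of 0.1, no filter, a sum of at least 70, quantile normalization, median-of-ratios size factors, chromosome centring, no trend, a replicate block and each sample left out.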

Additional observations from a re-analysis of the deposited data

Results flagged for a closer look

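In 63 values examined, 7 had a preleukemic sample farther from the other 3 than Dixon's 95% limit for a group of 4, where chance alone gives about 1 in 20 for independent, normal values. The values here were FPKM without a log and were not independent, since Epor is part of the flagged red cell precursor sum. The count of 7 therefore cannot be read as an excess over chance. The leukemic group of 3 was not examined.

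Among the members, Il7r was at 158 FPKM in preleukemic replicate 2, against 107 to 111 FPKM in the other preleukemic samples, and Cish was at 13.7 FPKM in the same sample, against 5.72 to 6.78 FPKM.

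In preleukemic replicate 1 the summed red cell precursor markers reached 2479 FPKM, against 353 to 376 FPKM in the other preleukemic samples, and 3 genes of the red cell lineage and of early progenitors followed, with Epor at 5.04 FPKM (others 0.379 to 0.534), Gfi1b at 4.02 FPKM (others 0.360 to 0.790) and Kit at 1.13 FPKM (others 0.218 to 0.373). Il7r, Cish and Socs2 of this sample lay inside the range of the other preleukemic samples.

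Ptpn6 was at 170.0 FPKM in preleukemic replicate 4, against 138 to 143 FPKM in the others.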

How the results depend on the processing

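No member passed under pseudocount, filter, scaling, trend or block alternatives; leaving out single samples gave 0 to 2 passing members (2 without leukemic replicate 2, Cish and Socs2, and 1 without leukemic replicate 3, Jak3). Cish and Socs3 were not tested with a sum of at least 70. Other pathway genes that passed numbered 13 to 26 under the pseudocount, filter, scaling and trend alternatives, and 2 to 23 with single samples left out; why the count fell was not tested. Quantile normalization gave 754 genes higher and 907 lower over the whole table, against 893 and 660 in the analysis reported. With single samples left out, the difference in the log2 ratio of Il2rg to Il7r was 0.26 to 0.48 and that of Stat5b to Stat5a 0.18 to 0.28.

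Replicate numbers are shared by the groups, but same-numbered samples did not deviate together (correlations 0.03, 0.05 and -0.09), and not every sample correlated best with its own number, so the numbers were not taken to pair the samples. With a replicate block 0 of all genes, 0 members and 0 other pathway genes passed, and the ratios differed by 0.44 and 0.22 (p = 0.25 each, exact permutation).

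Signs of the log2 fold change turned when single samples were left out for Il2rg (range -0.22 to 0.0029), Stat5b (-0.045 to 0.14, with -0.0052 and -0.0050 without leukemic replicate 3 and preleukemic replicate 1), Ifngr1 (-0.035 to 0.34), Il10ra (-0.53 to 0.41), Pim1 (-0.61 to 0.19) and Jak2 (-0.081 to 0.036), and for Jak2 also with size factors (0.0032), chromosome centring (0.024) and the replicate block (0.017). The table holds no counts, so depth limits chiefly Cish and Socs3, the members with the fewest fragments.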
